A study of Mus musculus with 16 samples.

Results

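G1E-ER4 cells at 100 nM beta-estradiol were set against the same cells at 0 nM, over every gene of a table of raw read counts. The libraries were chosen by their labels: 2 at 100 nM and 2 at 0 nM, together 4 of the 16 libraries of a series that holds 8 doses up to 200 nM with 2 libraries each. The table lists 23410 gene symbols, of which 10080 passed a filter on low counts and were tested. G1E-ER4 is a clonal mouse erythroid progenitor line without GATA1 of its own in which an added GATA1 is joined to the estrogen receptor's ligand-binding domain, and both groups share that genotype. All were kept in IMDM with fetal bovine serum, mono-thio-glycerate, stem cell factor and erythropoietin, and by the labels they differed in the amount of beta-estradiol, with 0 nM labelled as control. The sources used here do not give how long the cells were exposed. Libraries were made from total RNA by Smart-seq2, a full-length method that keeps neither strand nor molecular identifiers, so reads of overlapping genes on opposite strands cannot be told apart. The labels do not say that replicates were separate cultures, so the p-values measure the spread between these libraries, which may be technical.

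GATA1 is the zinc finger transcription factor that drives red cell and megakaryocyte formation, and it binds GATA motifs in promoters and enhancers. In G1E-ER4 cells the hormone releases the fusion protein to act in the nucleus, where it takes over sites held by GATA2 in progenitors. Erythroid maturation is known for the build-up of globin, heme and membrane proteins, for a wind-down of ribosome production and growth, and for a last run of cell divisions before the nucleus is expelled.

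The libraries held 14499852 and 14155508 counts at 100 nM, and 14847803 and 14413969 counts at 0 nM. Over the series the range was 9393156 to 15802510. Globin genes took 2.80% of all counts in each library at 100 nM and 0.151% in each at 0 nM, and the ribosomal RNA precursor entry Rn45s took 13.1% and 13.0% at 100 nM against 9.61% and 9.53% at 0 nM. With 2 libraries against 2, the exact permutation test of such a share cannot go below p = 0.333. The defining erythroid markers were present at both doses: 9 of 9 tested were called higher at 100 nM, against 34.1% of all genes tested. Markers of lineages other than megakaryocytes, which are given further on, were low. The 15 lymphocyte markers summed to 0.143 and 0.146 CPM (counts per 1e6 reads, scaled by edgeR's TMM method) at 100 nM against 0.491 and 0.378 at 0 nM, and the 12 fibroblast markers to 0.0716 and 0 at 100 nM against 0 and 0.0631 at 0 nM. Endothelial, granulocyte and mast cell lists reached at most 8.49 CPM in any of the 4 libraries. The mast cell list summed to 8.02 and 8.49 CPM at 100 nM against 5.64 and 5.30 CPM at 0 nM. Of its 5 members tested, 2 were called higher at 100 nM and 3 were not called. In bulk libraries, fewer cells of a type and less RNA per cell cannot be told apart.

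At 100 nM the cells had built up the transcripts of hemoglobin, heme synthesis and the red cell membrane, had lost most of their carbonic anhydrase 1, metallothionein and galectin 9 transcripts, and held lower levels of nearly all ribosome assembly and nucleotide synthesis genes. Of 10080 genes, 3436 rose and 3275 fell at 100 nM against 0 nM (edgeR's quasi-likelihood test, p adjusted by Benjamini and Hochberg's method and under 0.05), which is 66.6% of genes called, 34.1% higher and 32.5% lower. These shares are the background for each count below, and the median gene had a log2 fold change of 0.01. Most changes were small, with a median fold of 1.55 among genes that rose and 1.43 among those that fell. At least 2-fold changes were made up of 1104 genes higher and 624 lower, and at least 8-fold changes of 160 higher and 48 lower. Scaling by library size alone moved the median gene to -0.18 and turned the split to 2452 higher and 4621 lower, or 34.7% of calls higher in place of 51.2%, so small changes are read relative to the scaling.

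**Figure D1:**
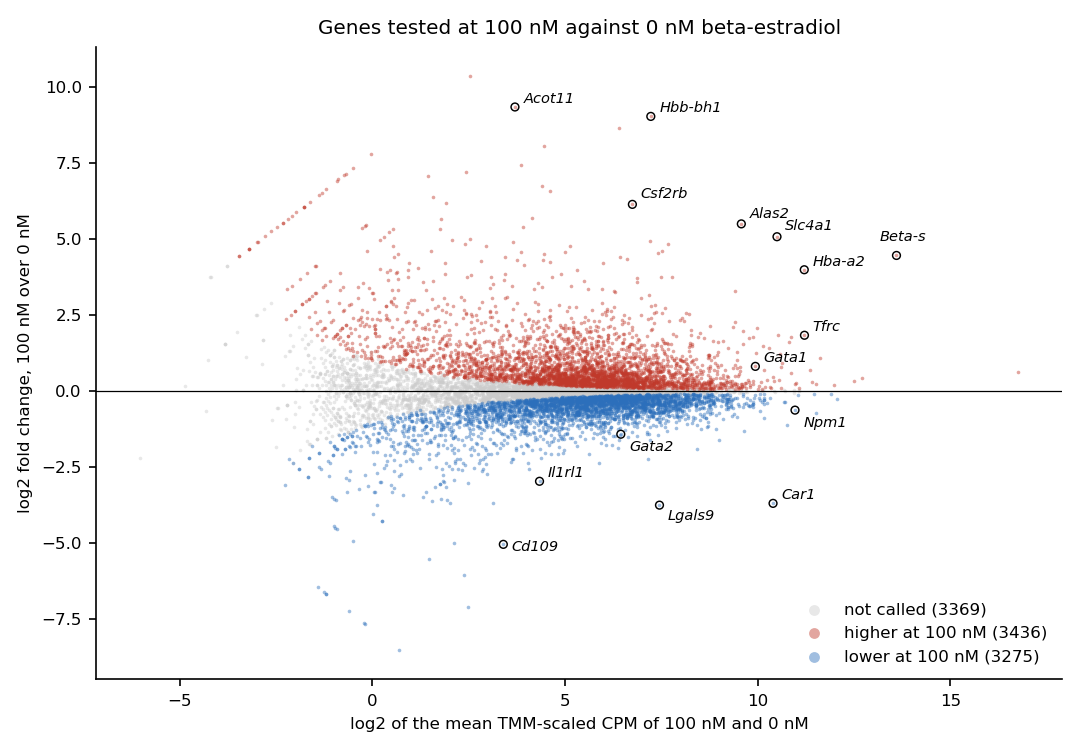
Each point is 1 of the 10080 genes tested. The horizontal axis is the log2 of its mean TMM-scaled CPM over 100 nM and 0 nM, and the vertical axis is the log2 fold change of 100 nM over 0 nM. Red marks 3436 genes called higher and blue 3275 called lower; named genes with large gains, such as Beta-s and Alas2, lie at the upper right, and Car1 and Lgals9 stand apart at the lower right.

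Neighbouring doses differed from 100 nM in fewer genes. Against 75 nM, 27.5% of genes were called in either direction (1480 higher and 1293 lower at 100 nM). Against 150 nM, 40.9% were called (2039 higher and 2081 lower at 100 nM). These comparisons share the 100 nM libraries with the main one.

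The transcription factor that the hormone switches on rose, and the factor it replaces fell. Gata1 had 1261 and 1247 CPM at 100 nM against 755 and 667 CPM at 0 nM, a log2 fold change of 0.82 ± 0.07 (standard error, n = 2 each; edgeR adjusted p = 4.26e-06). Gata2, the progenitor GATA factor, had 46.9 and 48.4 CPM at 100 nM against 133 and 121 CPM at 0 nM, a log2 fold change of -1.41 ± 0.10 (edgeR adjusted p = 5.59e-09). The 100 nM libraries were the high ones for Gata1 and the low ones for Gata2, with no overlap. Esr1, the estrogen receptor alpha gene, was looked at after its values were seen, because part of it is in the fusion: it had 128 and 141 CPM at 100 nM against 82.9 and 69.0 CPM at 0 nM, a log2 fold change of 0.83 (edgeR adjusted p = 6.54e-09). Whether Gata1 and Esr1 reads came from the fusion was not tested.

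Promoters of 4 genes that moved far are shown because the fusion protein acts through GATA motifs and these windows hold one. They are not typical of all genes that moved far. Windows of Acot11, Tubb1, Lgals9 and Mt2, among others, hold no AGATAA or TGATAA on either strand, while those of Csf2rb2 and Matn1 do. Alas2, erythroid aminolevulinate synthase, makes the first heme precursor. Beta-s is the table's name for the adult beta globin gene (Hbb-bs in RefSeq), Hba-a2 is an adult alpha globin gene, and Il1rl1 encodes the interleukin 33 receptor. The sequences are from RefSeq, build GRCm38.p6, read 5′ to 3′ along the gene from 250 bases before the RefSeq start, and end before the first base of the gene in GENCODE M21. Capitals mark AGATAA or TGATAA on either strand, so TTATCT and TTATCA count too. The windows are chrX:150547167-150547374 on the plus strand for Alas2, chr7:103828097-103828178 on the minus strand for Beta-s, chr11:32296242-32296488 on the plus strand for Hba-a2 and chr1:40429320-40429569 on the plus strand for Il1rl1. The motif begins at position -86 from the start in Alas2, -210 in Beta-s, -186 in Hba-a2, and -217 and -80 in Il1rl1.
Alas2: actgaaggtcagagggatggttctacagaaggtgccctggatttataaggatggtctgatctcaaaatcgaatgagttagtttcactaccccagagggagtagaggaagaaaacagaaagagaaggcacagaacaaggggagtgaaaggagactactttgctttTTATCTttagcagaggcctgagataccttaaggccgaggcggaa
Beta-s: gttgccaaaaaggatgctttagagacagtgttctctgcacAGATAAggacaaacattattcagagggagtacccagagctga
Hba-a2: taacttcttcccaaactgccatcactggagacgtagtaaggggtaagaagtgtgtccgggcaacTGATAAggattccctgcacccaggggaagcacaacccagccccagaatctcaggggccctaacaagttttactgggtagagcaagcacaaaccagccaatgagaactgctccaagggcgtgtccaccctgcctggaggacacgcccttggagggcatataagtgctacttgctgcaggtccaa
Il1rl1: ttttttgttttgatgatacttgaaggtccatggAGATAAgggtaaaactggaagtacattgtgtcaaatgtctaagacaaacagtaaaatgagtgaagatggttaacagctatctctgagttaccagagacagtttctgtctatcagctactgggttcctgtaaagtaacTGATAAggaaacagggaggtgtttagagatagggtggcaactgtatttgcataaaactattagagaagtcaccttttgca

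The motif was more frequent before genes with larger changes, as a description with no test. It stood in 12.3% of 1158 windows of genes at least 2-fold higher at 100 nM, in 10.4% of 656 windows of genes at least 2-fold lower, and in 9.34% of the 10252 windows of all genes tested. For genes at least 8-fold higher at 100 nM the share was 22.3% of 139 windows, and for genes at least 8-fold lower 16.2% of 37 windows. Over all 32851 windows of the promoter table, untested genes included, the share was 16.6%. A match is a run of letters, not a measured binding site, and 8125 of the 10080 genes matched the promoter table.

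All 6 globin genes tested rose. Beta-s (GRCm38 chr7:103826534-103828096) had 23848 and 23788 CPM at 100 nM against 1081 and 1074 CPM at 0 nM, and Hba-a2 (chr11:32296489-32297298) had 4485 and 4430 CPM at 100 nM against 277 and 281 CPM at 0 nM. Their log2 fold changes were 4.47 ± 0.07 and 4.0 ± 0.03. Hbb-bh1, an embryonic beta-like globin, was nearly silent at 0 nM, with 296 and 301 CPM at 100 nM against 0.736 and 0.378 CPM at 0 nM (log2 fold change 9.04 ± 0.10; edgeR adjusted p = 3.54e-40). The embryonic alpha-like globin Hba-x had 13.0 and 10.2 CPM at 100 nM and no read at 0 nM, so it was at least 125-fold higher, taking 3 counts over the 0 nM group as the floor. Hbb-y, the other embryonic beta-like gene, had 73 counts at 100 nM and 2 at 0 nM (ratio 42.5, counting interval 11.4 to 358). Globin copies are near-identical, Hbb-b1 and Beta-s in particular, and the sources used here do not say how reads were split between them, so single-gene values are uncertain.

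Heme genes rose too, 15 of 17 for the pathway and its mitochondrial transport (median log2 fold change 1.5). Alas2 (chrX:150547375-150570638) had 1504 and 1482 CPM at 100 nM against 32.9 and 32.8 CPM at 0 nM, a log2 fold change of 5.50 ± 0.04 (edgeR adjusted p = 7.29e-57). Abcb10, a mitochondrial transporter needed for heme synthesis, had 1231 and 1229 CPM at 100 nM against 126 and 126 CPM at 0 nM. Alad, the second enzyme of the pathway, and Slc25a39, a mitochondrial glutathione carrier, had log2 fold changes of 1.84 and 2.11. Among the 2 that fell was Alas1, the housekeeping isoform of Alas2, with 7.02 and 6.88 CPM at 100 nM against 10.9 and 12.5 CPM at 0 nM. Exons of Alas2 overlap those of Apex2 on the opposite strand, which had 45.4 CPM at 100 nM and 19.4 CPM at 0 nM.

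Iron genes moved both ways. Of 14 tested, 6 rose, 2 fell and 6 were not called, with a median log2 fold change of 0.06 that becomes -0.13 with library size alone. Tfrc, the transferrin receptor, had 3714 and 3720 CPM at 100 nM against 1040 and 1033 CPM at 0 nM (log2 fold change 1.84 ± 0.03), and the ferrireductase Steap3 and the iron sensor Aco1 rose by 1.04 and 1.13 on the log2 scale. Tfr2, the second transferrin receptor, fell instead, with 77.4 and 79.7 CPM at 100 nM against 208 and 210 CPM at 0 nM. Of the ferritin subunits, the light chain Ftl1 had 4276 and 4300 CPM at 100 nM against 2041 and 2018 CPM at 0 nM, while the heavy chain Fth1 fell slightly, with 3623 and 3739 CPM at 100 nM against 3960 and 3941 CPM at 0 nM (log2 fold change -0.10).

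Among membrane, skeleton and transporter genes of the red cell, 24 of 26 rose and 2 were not called (median log2 fold change 1.41). Slc4a1, the band 3 anion exchanger, had 2819 and 2814 CPM at 100 nM against 81.3 and 85.0 CPM at 0 nM, a log2 fold change of 5.08 ± 0.04 (edgeR adjusted p = 8.45e-58). The beta spectrin gene Sptb had 1140 and 1106 CPM at 100 nM against 235 and 230 CPM at 0 nM, and Gypc, glycophorin C, had 703 and 699 CPM against 224 and 223 CPM. The libraries at 100 nM were the high ones in each of these 3 genes, with no overlap.

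Several of the steepest gains lay outside the hemoglobin and membrane programs. Acot11, an acyl-CoA thioesterase, had 717 counts at 100 nM and 1 at 0 nM, so its ratio of 835 is loose (counting interval 149 to 33022). Tubb1, the platelet and megakaryocyte beta tubulin, had 45.8 and 41.3 CPM at 100 nM against 0.184 and 0.126 CPM at 0 nM. Tmem184a, a membrane protein gene, had 171 and 163 CPM at 100 nM against 0.429 and 0.378 CPM at 0 nM, and its exons overlap those of Mafk on the opposite strand, which had 144 CPM at 100 nM and 56.8 CPM at 0 nM. The cytokine receptor chain shared by interleukin 3, interleukin 5 and GM-CSF receptors, Csf2rb, had 211 and 213 CPM at 100 nM against 3.56 and 2.40 CPM at 0 nM (log2 fold change 6.15 ± 0.08), and its close paralog Csf2rb2 had 40.3 and 42.8 CPM against 0.368 and 0.378 CPM; reads of this pair may be shared, which leaves each value uncertain. Also among the 12 highest were Wnt2, a secreted signalling protein (log2 fold change 7.45), the matrix protein gene Matn1 (6.58), the glucose transporter Slc2a3 (5.70) and the aquaporin Aqp8 (5.41), each at most 1.07 CPM at 0 nM and at least 27.7 CPM at 100 nM. In all 12 the 2 groups stood apart, as the naming rule required. That rule also left out genes with a mean under 20 CPM at 100 nM, such as Hba-x.

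**Figure D2:**
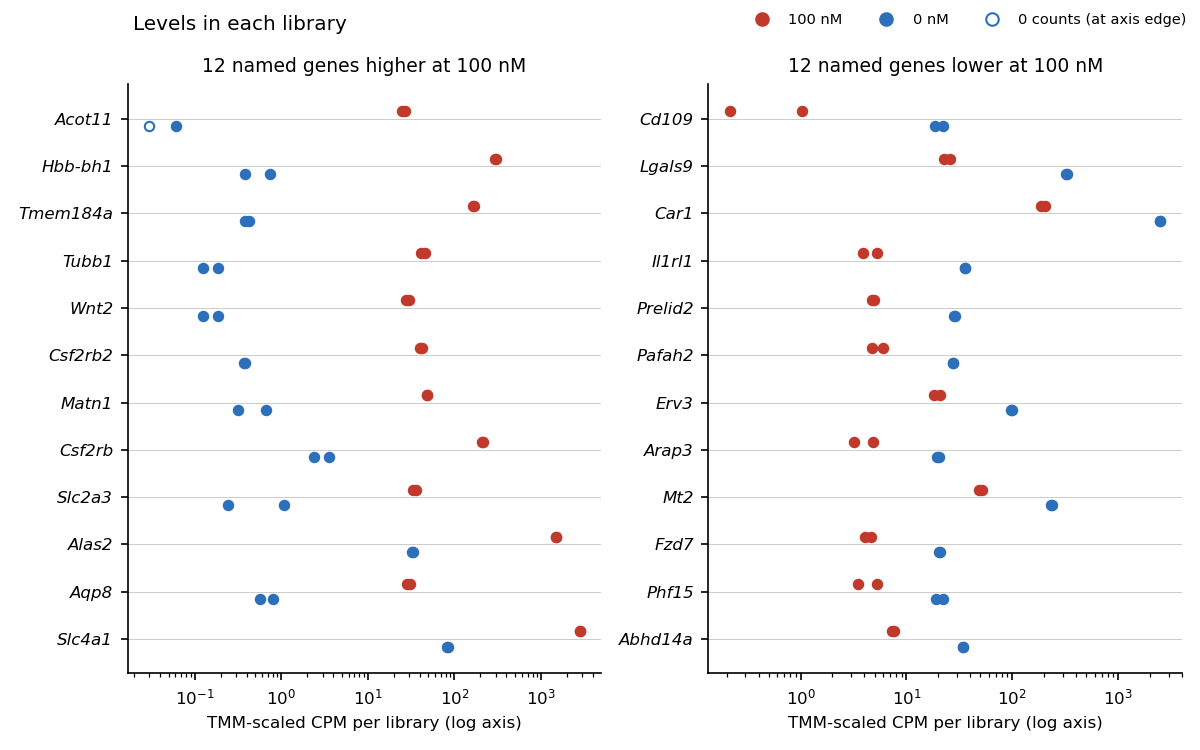
Each point is the TMM-scaled CPM of a gene in 1 library on a log axis, with 100 nM in red above and 0 nM in blue below; an open point at the axis edge stands for 0 counts. The 12 genes with the highest log2 fold changes are on the left and the 12 with the lowest on the right, and the 2 groups do not overlap for any of them, as the naming rule requires.

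On the falling side, among genes of at least 20 CPM at 0 nM, the deepest drop was in Cd109, a surface protein that binds TGF-beta, with 0.215 and 1.02 CPM at 100 nM against 18.7 and 22.2 CPM at 0 nM (log2 fold change -5.03 ± 0.28). Lgals9, galectin 9, had 22.6 and 26.0 CPM at 100 nM against 327 and 324 CPM at 0 nM, a log2 fold change of -3.74 ± 0.06 (edgeR adjusted p = 1.05e-43). Car1, carbonic anhydrase 1 (chr3:14766216-14808368), lost the most CPM of all genes, with 186 and 203 CPM at 100 nM against 2498 and 2514 CPM at 0 nM. Il1rl1 had 5.30 and 3.88 CPM at 100 nM against 35.7 and 35.9 CPM at 0 nM. Mt2, a metal-binding metallothionein, had 48.1 and 51.9 CPM at 100 nM against 235 and 234 CPM at 0 nM, and its close paralog Mt1 had 254 and 252 CPM against 751 and 769 CPM. The remaining genes of the 12 were Prelid2, a mitochondrial intermembrane protein gene, Pafah2, a platelet-activating factor hydrolase, Erv3, an endogenous retroviral gene, Arap3, a GTPase-activating protein gene, the Wnt receptor gene Fzd7, Phf15, a PHD finger gene, and Abhd14a, a hydrolase-fold gene, with log2 fold changes between -2.57 and -2.19.

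Zinc and carbonic anhydrase genes moved both ways: 7 of 15 rose and 8 fell. Zinc exporter Slc30a1 had 34.4 and 35.4 CPM at 100 nM against 8.34 and 8.89 CPM at 0 nM. Slc39a8 and Slc30a10, other metal transporters, had log2 fold changes of 0.83 and 0.87. The falling members included Car1, Mt2 and Mt1.

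Of 21 erythroid transcription factors, 16 rose, 4 fell and 1 was not called (median log2 fold change 1.15). Klf13, a Krüppel-like factor, had 248 and 235 CPM at 100 nM against 58.7 and 59.7 CPM at 0 nM. Nfe2 and Gfi1b, an activator and a repressor of the erythroid and megakaryocyte lineages, had log2 fold changes of 1.46 and 1.17, and Foxo3, which drives late erythroid genes, had 1.79. Lyl1, a relative of Tal1, fell by 0.45 on the log2 scale, and Bcl11a, a repressor of fetal globin in humans, fell by 0.23, which is close to the shift between scalings.

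Progenitor factors and receptors were lower more often than higher, with 8 of 16 tested lower and 4 higher (median log2 fold change -0.52). Kit, the stem cell factor receptor, had 285 and 280 CPM at 100 nM against 518 and 522 CPM at 0 nM. Myc, a transcription factor that drives cell growth, had 187 and 182 CPM at 100 nM against 389 and 394 CPM at 0 nM. Members that rose included Fli1, a megakaryocyte factor, with 14.8 and 14.9 CPM at 100 nM against 0.552 and 0.504 CPM at 0 nM, and Sfpi1 (PU.1), a myeloid factor, with 32.7 and 33.2 CPM at 100 nM against 4.91 and 3.66 CPM at 0 nM.

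Platelet and megakaryocyte markers moved beside them. Of 9 tested, 5 were higher, 1 was lower and 3 were not called, and the 16 markers in the table summed to 283 and 269 CPM at 100 nM against 55.4 and 55.8 CPM at 0 nM. Itgb3, integrin beta 3, made up most of the sum at 100 nM but not at 0 nM, with 170 and 160 CPM at 100 nM against 8.22 and 7.31 CPM at 0 nM. Gp9 rose by 3.52 on the log2 scale, while Gp5, another platelet glycoprotein, had 3.30 and 3.15 CPM at 100 nM against 13.4 and 11.2 CPM at 0 nM. Of the 16, 5 had no read at 100 nM and 6 none at 0 nM. The part of other cells in these values was not tested.

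In signalling downstream of the erythropoietin receptor, 13 of 22 genes rose and 4 fell. Pim1, a kinase induced by STAT5, had 506 and 505 CPM at 100 nM against 87.8 and 87.6 CPM at 0 nM. Fam132b (erythroferrone), the erythroid hormone that lowers hepcidin, had 84.5 and 83.3 CPM at 100 nM against 6.99 and 6.68 CPM at 0 nM, with exons that overlap those of Ilkap on the opposite strand. Stat5a and the phosphatase gene Ptpn6 fell, each with a log2 fold change of -1.04.

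Most genes of ribosome assembly and nucleotide synthesis fell. In ribosome biogenesis 38 of 40 genes were lower and none was higher, with 2 not called and a median log2 fold change of -0.63. Npm1, nucleophosmin, had 1585 and 1576 CPM at 100 nM against 2431 and 2427 CPM at 0 nM, and Ncl, nucleolin, had 2214 and 2219 CPM against 3617 and 3648 CPM. Polr1b, an RNA polymerase I subunit, had 95.3 and 86.6 CPM at 100 nM against 207 and 201 CPM at 0 nM. Nolc1 and Wdr12, ribosome assembly factors, had log2 fold changes of -0.79 and -0.86. The Rn45s precursor entry itself was higher at 100 nM, as given above.

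Serine, folate and nucleotide synthesis fell in 28 of 31 genes (median log2 fold change -0.64), with 1 higher. Mthfd1, the cytosolic trifunctional folate enzyme, had 462 and 464 CPM at 100 nM against 1129 and 1147 CPM at 0 nM. Gart, of purine synthesis, had 384 and 384 CPM at 100 nM against 726 and 715 CPM at 0 nM, and Psat1, of serine synthesis, had 505 and 511 CPM against 907 and 913 CPM. The exception was Mthfd2, the mitochondrial folate enzyme, which rose by 0.28 on the log2 scale. Of the aminoacyl-tRNA synthetases 16 of 20 fell, among them Nars and Lars (log2 fold changes -0.59 and -0.53), while Aars and Qars rose by 0.34 and 0.10; with library size alone 19 were lower and 1 was higher. Among translation factors 10 rose and 13 fell out of 27, or 5 and 18 with library size alone, with the poly(A)-binding protein Pabpc1 at 2058 and 2077 CPM at 100 nM against 1100 and 1067 CPM at 0 nM.

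Energy metabolism shifted in part. Of 22 genes of glycolysis and bisphosphoglycerate synthesis, 7 rose and 10 fell, or 5 and 12 with library size alone. Ldha, lactate dehydrogenase A, had 1106 and 1111 CPM at 100 nM against 2355 and 2431 CPM at 0 nM, and Pkm had 245 and 257 CPM against 563 and 573 CPM. Pklr, the pyruvate kinase of red cells, and Bpgm, which makes bisphosphoglycerate, rose by 0.45 and 1.58 on the log2 scale. In the tricarboxylic acid cycle 16 of 21 genes fell and 3 rose (median -0.32), or 19 and 1 with library size alone, and among those that fell was Idh3a with a log2 fold change of -0.86. Of 50 nuclear genes of oxidative phosphorylation 13 rose and 20 fell with a median of -0.04, a split that library size alone turned to 3 and 40. Cholesterol genes rose in 15 of 22 cases and fell in 3 (median 0.26), or 11 and 7 with library size alone (median 0.07). Fdft1, squalene synthase, rose by 0.96 on the log2 scale. Its exons overlap those of Ctsb on the opposite strand, which had 711 CPM at 100 nM and 161 CPM at 0 nM. The part of Ctsb reads in the Fdft1 rise was not tested. Dhcr7, the last enzyme of the pathway, fell to 61.2 and 59.3 CPM at 100 nM, against 150 and 155 CPM at 0 nM.

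Cell cycle lists differed in how many members rose and fell. Mitosis and cytokinesis genes rose in 37 of 45 cases and fell in 2, with a median log2 fold change of 0.38, and in 31 and 6 cases with library size alone. Cdc25b, the phosphatase that starts mitosis, had 351 and 354 CPM at 100 nM against 14.7 and 14.1 CPM at 0 nM, and its exons overlap those of Spef1 on the opposite strand. Mki67, the Ki-67 gene, had 353 and 340 CPM at 100 nM against 167 and 170 CPM at 0 nM, and Ccnb2 and Nusap1 had log2 fold changes of 0.96 and 1.52. The checkpoint kinase gene Bub1b fell by 0.48.

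DNA replication genes were split, with 17 of 44 higher, 11 lower and 16 not called around a median of 0.03; with library size alone 7 were higher and 26 lower, and the median was -0.16. Cdc6, which loads the helicase, had 318 and 310 CPM at 100 nM against 162 and 165 CPM at 0 nM. Polymerase delta subunits Pold1 and Pold2 fell, with log2 fold changes of -0.55 and -0.75. Among G1 genes, 9 of 21 rose and 8 fell, or 9 and 10 with library size alone, and the D cyclins moved in opposite directions: Ccnd3 had 1253 and 1250 CPM at 100 nM against 316 and 318 CPM at 0 nM, and Ccnd2 had 323 and 323 CPM against 543 and 539 CPM. Cdk4 and Cdk6, the kinases they activate, fell by 0.53 and 0.59 on the log2 scale.

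Brakes on the cycle were higher at 100 nM. Of the 9 tested genes that block cyclin-dependent kinases or slow proliferation, 8 rose and 1 was not called (median log2 fold change 1.27). Btg2, an antiproliferative p53 target, had 323 and 325 CPM at 100 nM against 13.7 and 14.2 CPM at 0 nM, and Cdkn1a (p21) had 272 and 269 CPM against 114 and 111 CPM. Of 14 p53 targets 12 rose, among them Trp53inp1 with 137 and 131 CPM at 100 nM against 18.3 and 20.7 CPM at 0 nM. Cdkn1a stands in both lists.

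In the death and clearance machinery, Bcl2l1 (Bcl-xL), the survival gene of late erythroblasts, had 334 and 333 CPM at 100 nM against 50.3 and 50.6 CPM at 0 nM. Over 17 genes of the BCL2 and caspase families 6 rose and 3 fell, with a median of 0.15 that library size alone turned to -0.04. Autophagy and organelle clearance genes rose in 23 of 29 cases and fell in 3 (median 0.52). Bnip3l (Nix), the receptor for mitochondrial clearance in reticulocytes, had 367 and 378 CPM at 100 nM against 194 and 195 CPM at 0 nM, and Atg9a and Sqstm1 had log2 fold changes of 1.87 and 1.18. Bnip3, its relative, fell by 0.71. Ubiquitin enzymes of erythroid maturation rose in 14 of 16 cases (median 1.22), Ube2o, which marks ribosomal proteins for removal, reaching 93.6 and 86.3 CPM at 100 nM against 16.9 and 19.0 CPM at 0 nM. Lysosomal genes rose in 14 of 23 cases and fell in 4 (median 0.33), or 10 and 8 with library size alone (median 0.14). The cathepsin genes Ctsb and Ctsd were among those that rose, with log2 fold changes of 2.14 and 1.42.

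Stress responses were mixed. Heat shock and chaperonin genes fell in 20 of 24 cases, for example Hspd1 (Hsp60) with 812 and 812 CPM at 100 nM against 1481 and 1479 CPM at 0 nM, while the co-chaperone Bag1 rose by 1.39 on the log2 scale. Genes of the integrated stress and unfolded protein responses rose in 14 of 23 cases and fell in 5, or 11 and 8 with library size alone, with Eif2ak1, the heme-regulated kinase of eIF2alpha, at 372 and 359 CPM at 100 nM against 104 and 102 CPM at 0 nM. Peroxide and glutathione defence genes rose in 18 of 23 cases, among them Prdx2, the abundant red cell peroxiredoxin, with 2902 and 2861 CPM at 100 nM against 841 and 826 CPM at 0 nM, Cat and Gpx1. Exons of Prdx2 overlap Junb and Rnaseh2a on the opposite strand. Sod2 and Gsta4 fell by 0.84 and 2.24. Immediate early genes rose in 10 of 13 cases, with Dusp1 at 66.0 and 65.2 CPM at 100 nM against 5.09 and 6.87 CPM at 0 nM.

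Other lists were mixed or small. Amino acid transporters (7 higher, 6 lower of 15), chromatin and lamina genes (11 higher, 6 lower of 24), interferon genes (6 higher, 2 lower of 10) and classical estrogen receptor targets (4 higher, 3 lower of 8) had medians of 0.12, 0.08, 0.67 and 0.46. The first pair turned to -0.07 and -0.11 with library size alone. Among estrogen receptor targets Xbp1 had 153 and 160 CPM at 100 nM against 52.9 and 52.5 CPM at 0 nM, and Myb, the progenitor factor, had 14.2 and 17.3 CPM at 100 nM against 42.8 and 40.4 CPM at 0 nM.

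**Figure D3:**
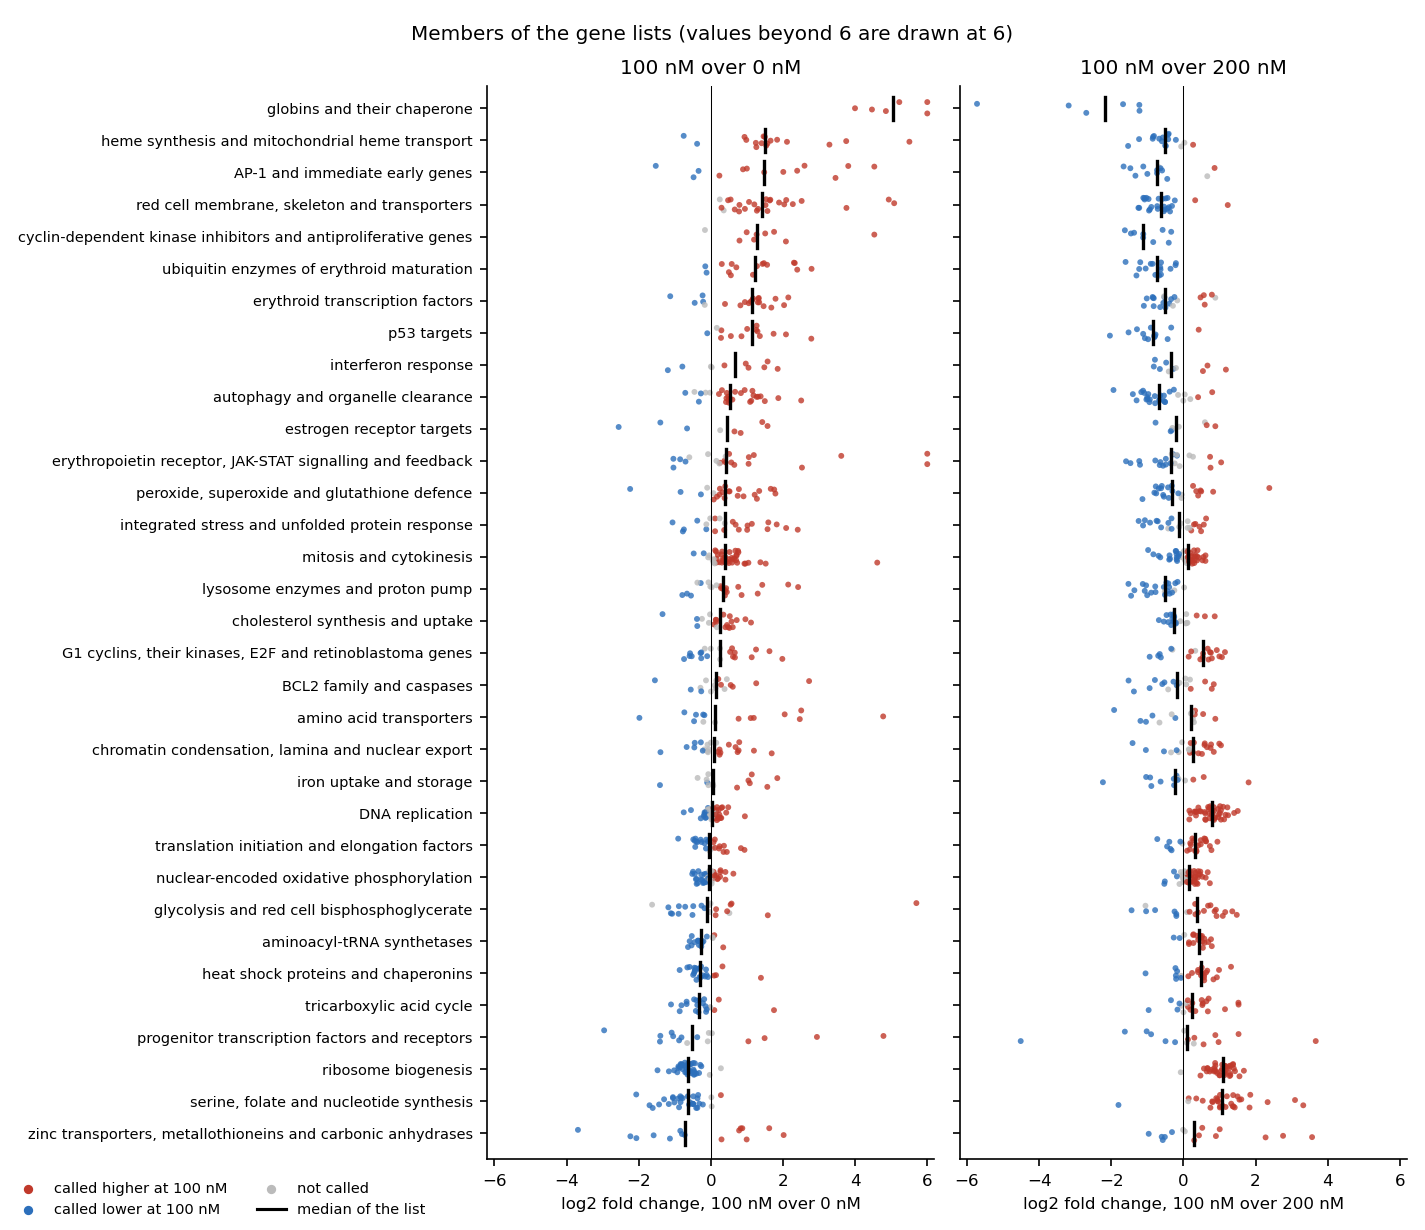
Each point is a tested member of 1 of 33 gene lists. It is placed by its log2 fold change of 100 nM over 0 nM on the left and of 100 nM over 200 nM on the right. Very large values, such as that of Hba-x, are drawn at a fixed limit near the panel edge. Red is called higher at 100 nM, blue called lower, grey not called, and the black bar is the list's median. Globin members with 3 or fewer counts at 0 nM have fitted values that are no bound. Heme and membrane lists lie right of 0 against 0 nM and left of 0 against 200 nM, ribosome biogenesis does the opposite, and DNA replication is near 0 against 0 nM and right of 0 against 200 nM; both panels use the 100 nM libraries.

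Set against the highest dose, 100 nM differed in most genes tested. Of 10080 genes 64.1% were called at 100 nM against 200 nM, 3185 higher (31.6%) and 3273 lower (32.5%), of which 638 and 613 were at least 2-fold. With library size alone the split was 4325 higher and 2133 lower and the median gene moved to 0.18. Among genes of at least 20 CPM at the higher dose, the largest shortfalls at 100 nM were in embryonic globins: Hbb-y had 2.29 and 3.0 CPM at 100 nM against 141 and 139 CPM at 200 nM, and Hba-x had 13.0 and 10.2 CPM against 106 and 105 CPM. Ypel2 and Dhrs3, a yippee-family gene and a retinal reductase gene, had log2 fold changes of -2.76 and -2.67. Higher at 100 nM were Slc19a1, the folate carrier, with 44.7 and 48.2 CPM at 100 nM against 4.98 and 5.85 CPM at 200 nM, Fpgs, which traps folate in the cell, with 30.3 and 27.2 CPM against 5.71 and 5.68 CPM, and Ydjc, a deacetylase-like gene whose exons overlap Ube2l3 and Ccdc116 on the opposite strand (log2 fold change 2.25). Car1 and Mt2 were also among the 5 highest, with log2 fold changes of 2.76 and 2.28.

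Named genes had covered unequal parts of the way between 0 and 200 nM, measured in CPM. At 100 nM Beta-s had covered 41.9% of that distance, Hba-a2 41.3%, Slc4a1 41.4%, Alas2 34.1%, Hbb-bh1 15.4% and Hbb-y 1.85%. Tfrc had covered 78.0%, Gata1 58.3% and Gata2 71.7%. Of the falling genes, Lgals9 had covered 100.2%, Cd109 98.9%, Car1 93.3%, Mthfd1 68.5%, Ldha 64.4% and Npm1 53.5%. A gene that has dropped many-fold at 100 nM has by arithmetic covered most of its distance, so this order is in part set by how the genes were named. For Lgals9, 100 nM and 200 nM did not differ in the test (log2 fold change -0.04 ± 0.08; edgeR adjusted p = 0.666), which does not show that they are equal.

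**Figure D4:**
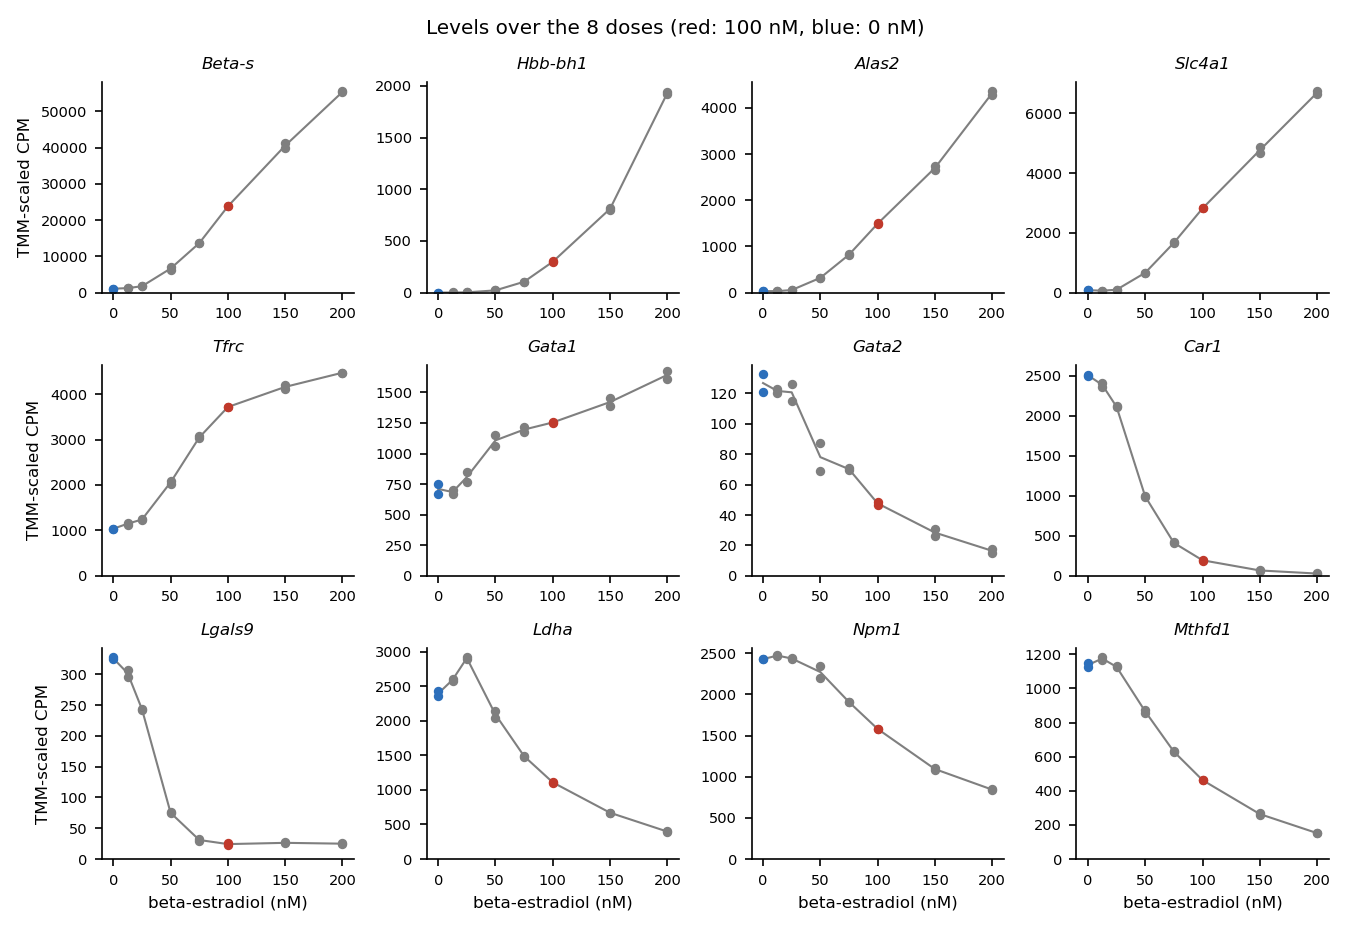
Each panel gives the TMM-scaled CPM of 1 gene in the 16 libraries over beta-estradiol in nM, with a line through the mean of the 2 libraries at each dose, 100 nM in red and 0 nM in blue. Globin, Alas2 and Slc4a1 levels are still climbing at 100 nM, where Beta-s stands at 41.9% of its distance to 200 nM, whereas Lgals9 is near its lowest level by then and Car1 is still falling.

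List counts against both ends are given side by side, from 2 comparisons that share the 100 nM libraries. Ribosome biogenesis, with 38 of 40 genes lower at 100 nM against 0 nM, had 39 higher at 100 nM against 200 nM (median log2 fold change 1.10). All 44 DNA replication genes were higher at 100 nM than at 200 nM (median 0.80), under either scaling. Mitosis genes were divided against 200 nM, with 24 higher and 15 lower, but with library size alone 30 were higher and 7 lower. Of the membrane list 24 of 26 were lower at 100 nM than at 200 nM, and of the kinase inhibitors 9 of 9.

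Some genes were further out at 100 nM than at either end of the range. By the larger of the 2 p-values, then adjusted over all genes tested, 170 genes stood above both 0 nM and 200 nM and 90 below both. That is 2.58% of the genes tested, 1.69% above and 0.893% below. The step to the nearer end was small, a median of 1.24-fold above and 1.27-fold below. Without 100 nM replicate 2 the counts were 111 above and 49 below, and without 100 nM replicate 1 the count below was 53. Of the 170 genes, 90 had their highest mean of all 8 doses at 100 nM, 51 at 75 nM, 16 at 150 nM and 13 at 50 nM. For the 90 below, the lowest mean was at 100 nM in 50 genes and at 75 nM in 30. The genes were chosen by their 100 nM values, so the choice itself favours 100 nM as the extreme dose. These counts cannot show at which dose the genes truly peak or dip.

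Mitosis genes made up 12 of those above both ends, from 45 tested, and the number was 12 under library size alone. They included Cdk1, the kinase of mitotic entry, with 292 and 292 CPM at 100 nM, against 251 and 245 CPM at 0 nM and 209 and 195 CPM at 200 nM, and the polo-like kinase Plk1, with 183 and 182 CPM at 100 nM, against 142 and 148 CPM at 0 nM and 145 and 149 CPM at 200 nM. Both genes were picked from the 12 after their values were seen. The 12 under library size alone need not be the same genes. The rise of Cdk1 over 0 nM was close in size to the shift between scalings. Of 44 DNA replication genes 12 stood above both ends, but 4 did with library size alone. Rrm2, a ribonucleotide reductase subunit also picked after its values were seen, had 898 and 887 CPM at 100 nM, against 741 and 741 CPM at 0 nM and 535 and 549 CPM at 200 nM.

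The 5 named genes above both ends were Arhgef10l, Rbl1, Rasl11a, Rptor and Aqp3. Arhgef10l, a guanine nucleotide exchange factor gene, had 39.8 and 36.7 CPM at 100 nM, against 17.3 and 18.5 CPM at 0 nM and 21.2 and 22.8 CPM at 200 nM. Rptor, the raptor subunit of the mTORC1 growth kinase, had 97.6 and 93.6 CPM at 100 nM, against 61.2 and 59.8 CPM at 0 nM and 58.2 and 55.7 CPM at 200 nM (adjusted p = 7.34e-11, the larger edgeR test). Rbl1 (p107), of the retinoblastoma family, had 129 and 138 CPM at 100 nM, against 64.0 and 57.8 CPM at 0 nM and 75.7 and 84.2 CPM at 200 nM. Its call was lost when either 100 nM library or either 200 nM library was left out, with edgeR adjusted p between 0.0523 and 0.132. Rasl11a, a small GTPase gene, and Aqp3, the glycerol and water channel, had log2 fold changes of 1.71 and 1.46 against 0 nM, and of 0.72 and 0.66 against 200 nM. Outside Rbl1 no call of these genes was lost in any alternative. In all 5 the 100 nM libraries lay above both other groups, as the naming rule required.

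Below both ends were Ces2g, Slc26a2, Cd55, Plin3 and Mboat7. Ces2g, a carboxylesterase gene, had 11.7 and 10.5 CPM at 100 nM, against 36.2 and 34.8 CPM at 0 nM and 27.0 and 21.8 CPM at 200 nM. Cd55, which protects cells from complement, had 18.6 and 21.4 CPM at 100 nM, against 37.9 and 35.6 CPM at 0 nM and 36.7 and 33.4 CPM at 200 nM. Plin3, a lipid droplet coat gene, had 9.24 and 9.22 CPM at 100 nM, against 16.4 and 15.3 CPM at 0 nM and 29.1 and 29.1 CPM at 200 nM. The sulfate transporter Slc26a2 and the acyltransferase Mboat7 had log2 fold changes of -1.12 and -0.94 against 0 nM, and of -0.84 and -0.75 against 200 nM. In each of these genes the libraries at 100 nM lay below those of both other doses, as the naming rule required.

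**Figure D5:**
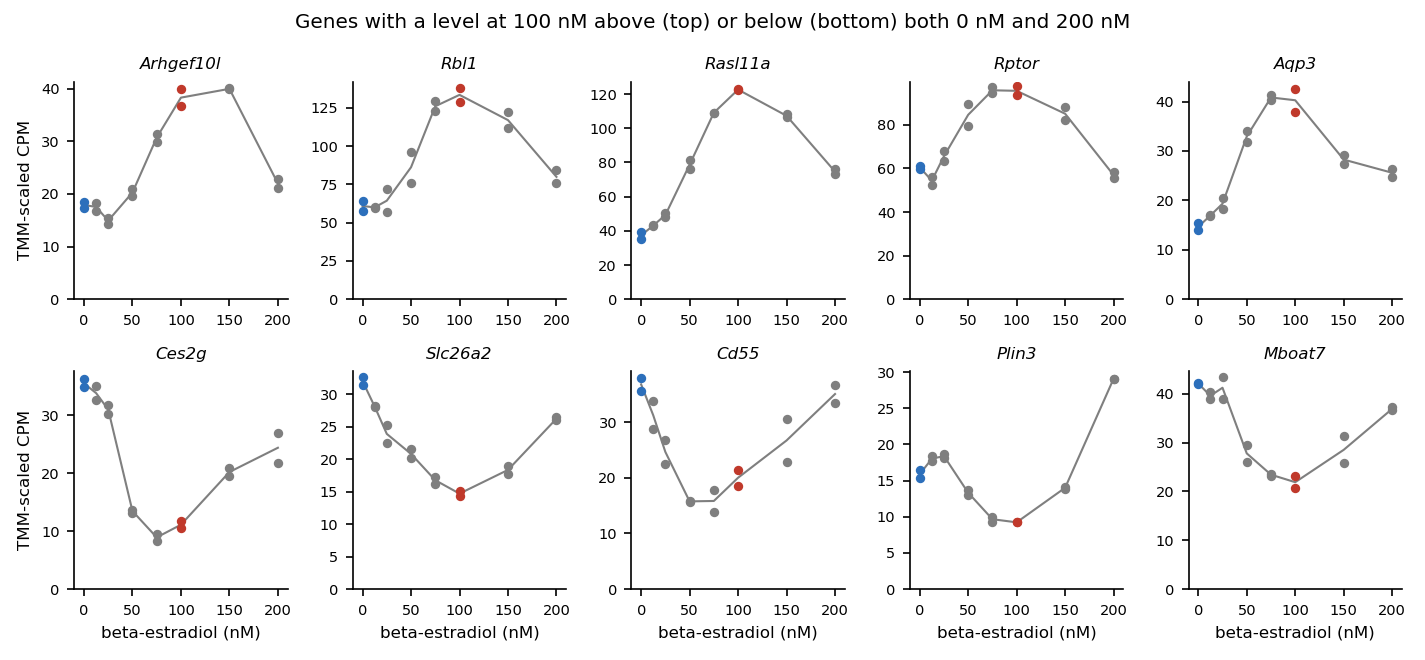
Each panel gives the TMM-scaled CPM of 1 gene in the 16 libraries over beta-estradiol in nM, with a line through the dose means, 100 nM in red and 0 nM in blue. The 5 genes above both ends peak at 75 to 150 nM and come down at 200 nM, and the 5 below both ends dip between 50 and 100 nM.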

How the data were processed

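The authors deposited 1 table of raw read counts per gene and library. Reads were demultiplexed with bcl2fastq and aligned with STAR to mm10, per the submitters' processing notes. The sources used here do not name the read counter or annotation, or say how reads matching several places were handled. Counts were taken as deposited. Gene positions come from GENCODE M21 and promoter windows from RefSeq, both of the GRCm38 (mm10) build.

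edgeR 4.0.16 in R 4.3.3 was fitted to all 16 libraries with dose as a factor (filterByExpr, TMM scaling, robust quasi-likelihood test, Benjamini-Hochberg adjustment, called under 0.05), leaving 8 residual degrees of freedom. A gene beyond both ends needed the same sign against 0 nM and 200 nM, with the larger p adjusted over all genes. CPM values use TMM-scaled library sizes. DESeq2 1.42.0 was an alternative. Counts were simulated for 100 nM against 0 nM over 10080 genes, with 50 genes changed at each fold, evenly up and down, and the other doses alike. There 66% of 1.25-fold, 94% of 1.5-fold and 100% of 2-fold changes were called, with 10 false calls among 9880 unchanged genes. The data held far more changes and a shift in library composition, so these rates need not hold for them. Intervals of count ratios are exact 95% ones and cover counting error only. Each library counted as a replicate. The 2 libraries of a dose differed by more than sampling noise, but that difference may be technical and does not show that they were separate cultures.

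By rule, the text names 12 genes at each extreme of log2 fold change, taken from called genes that averaged 20 CPM or more at the dose where they were higher and whose groups did not overlap, the 6 largest gains and 6 largest losses in CPM, the 5 in each direction against 200 nM and beyond both ends (found by that rule), up to 4 members of a list by adjusted p with up to 2 of the opposite direction, and Gata1 and Gata2. Lists held 901 entries in 40 lists, 893 of which matched the table; Beta-s was matched to its list after its values were seen. The libraries, lists and comparisons were chosen with earlier results of these data known. Some genes that the rule names are not reported here.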

Additional observations from a re-analysis of the deposited data

How the results depend on the processing

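Over 80 recomputed counts of genes, 76 stayed within 1.5 times the value given above. Library size alone gave 2133 genes lower at 100 nM against 200 nM in place of 3273. Leaving out 1 library at a time gave 3085 to 3119 genes higher and 2941 to 2993 lower at 100 nM against 0 nM, 2871 to 3239 higher and 2886 to 3206 lower against 200 nM, and 111 to 147 genes above and 49 to 80 below both ends. Where this left 1 library at a dose, it was assumed to vary like the other doses. With the replicate number as a block, 3431 genes were higher and 3269 lower at 100 nM against 0 nM, 3170 and 3249 against 200 nM, and 167 and 89 lay beyond both ends; the deviations of same-numbered libraries at 100 nM and 0 nM correlated by 0.0078 over genes, so the numbers were not taken to pair the libraries. DESeq2 called 3079 higher and 2985 lower at 100 nM against 0 nM.

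Of 733 recomputed values of 58 named results, 729 kept their direction and their call, and the other 4 were those of Rbl1. Most of these genes were named for large, called changes, so this outcome was in part set by the naming rule. It says little about the many small changes. Of 430 recomputed list medians, 358 kept their sign and moved by no more than the median standard error of the list's members, 64 moved by more with the same sign, and 8 changed sign: with library size alone, iron genes to -0.13, BCL2 and caspase genes to -0.0389, DNA replication to -0.16, amino acid transporters to -0.0710 and chromatin genes to -0.11; with 1 library left out, amino acid transporters ranged from -0.18 to 0.6627, below 0 in 2 cases, and mast cell markers from -0.0180 to 0.5313. The cause was not tested. Depth limits calls of small changes in genes of few counts, and 24 tested genes had 3 or fewer counts at 0 nM with at least 1 CPM at 100 nM.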

Other observations

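Of the 228 genes described here or named by the same rules, 36 have exons that overlap those of another tested gene, 33 of them on the opposite strand, and their values may include reads of that gene. One case stands in a stress gene: Ppp1r15a, a phosphatase subunit that ends the integrated stress response, had 169 and 169 CPM at 100 nM against 34.6 and 28.9 CPM at 0 nM, and Tulp2 on the opposite strand had 25.8 CPM at 100 nM and 1.28 CPM at 0 nM.

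The largest gain in CPM was that of the ribosomal RNA precursor entry Rn45s, which averaged 135093 CPM at 100 nM and 87073 CPM at 0 nM. The 6 genes with the next largest gains (Beta-s, Hba-a2, Slc4a1, Tfrc, Ftl1 and Prdx2) made up 16% of the CPM gained by all entries called higher, Rn45s included, and the 6 with the largest losses (Car1, Ncl, Ldha, Npm1, Hsp90ab1 and Mthfd1) made up 7.24% of the CPM lost by genes called lower. Hsp90ab1, a cytosolic chaperone, had 3901 and 3886 CPM at 100 nM against 4677 and 4712 CPM at 0 nM.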
